A study of Mus musculus with 12 samples.

Results

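RNA-seq read counts were compared between 4T1 mouse mammary tumour cells transfected with mouse Myb (MYBup) and mock-transfected 4T1 cells, 3 libraries against 3, which are 6 of the 12 libraries of the study. 4T1 is an established line from a mouse mammary carcinoma that spreads to the lung when grown in mice. The mock cells carried the expression plasmid pcDNA3.1. The MYBup cells carried pcDNA3-mMyb and are labelled as having a low capacity to metastasise to the lung, against a normal capacity of mock cells. Untransfected 4T1 cells (wt, 3 libraries) give a further reference. Cells of the fourth group (lung3, 3 libraries), passaged 3 times through the lung, entered only the shared estimate of the spread. Plasmids of the pcDNA3 series drive their insert from a cytomegalovirus promoter. The comparison serves the study's search for genes that Myb and lung passage move in opposite directions.

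c-Myb, the product of Myb, is a transcription factor that binds DNA through 3 imperfect repeats related to those of other MYB proteins. It is best known for keeping blood progenitors and colon crypt cells dividing. In mammary epithelium it is expressed in luminal cells and in many oestrogen receptor positive tumours, where the receptor promotes its transcription. The genes with the largest changes were named outside 2 lists of inflammatory genes and of genes for the synthesis of sterols and fatty acids (198 and 54 genes). Cd14, Icam1 and Vcam1 of the first list, and caspases of inflammation, appear below as members of other lists.

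Total counts ran from 12170188 to 21104811 over the 6 libraries, and of 22880 features listed, 11291 had enough reads to be tested. Levels are CPM (counts scaled by library size, with TMM factors), given with SD over 3 libraries, and log2 fold changes are MYBup against mock from an edgeR quasi-likelihood fit. A gene is called when its Benjamini-Hochberg adjusted p over all tested genes is below 0.05, and every adjusted p below comes from that test. 3038 genes were called, 26.9% of those tested, of which 1615 (14.3%) were higher and 1423 (12.6%) lower in MYBup cells. 613 (5.43%) also differed at least 2-fold, 324 (2.87%) up and 289 (2.56%) down. 2896 of the called genes (25.6% of those tested) had mock and MYBup libraries that did not overlap. The median log2 fold change of all tested genes was 0.00. For each gene list below, the percent called and the median cover the members that passed the filter (0 to 43 members of a list did not), and a percent near 26.9% is no more than that of all genes. The lists were chosen with earlier results of these data known, so a percent above 26.9% is a description only. Whether the 3 libraries of a group are separate cultures is not in the labels, so the p-values measure only the spread between these libraries. Nor do they say whether the mock and MYBup cells are pools or single clones, so an effect of Myb and a difference between 2 lines cannot be told apart. The first principal component of the 6 libraries held 71.6% of the variance and separated MYBup from mock cells. The second held 17.7% and set MYBup replicate 1 and mock replicate 2 apart from the others. In both, genes with short exons in total were higher and genes with long exons lower than in the other libraries (median deviation 0.08 and -0.12 log2 CPM in the 25% of genes with the shortest and the longest exons for MYBup replicate 1, 0.14 and -0.17 for mock replicate 2). Without this pair 1476 genes were called higher and 1434 lower. Leaving out 1 library moved the calls over all tested genes too, to between 1082 and 1698 higher and between 964 and 1688 lower. List counts given below for such settings thus do not compare with 1615 and 1423.

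Myb itself (ENSMUSG00000019982, chromosome 10, 21124935 to 21160984, GRCm38) was first read in every library, since it checks the labels. It stood at 5.17, 4.49 and 6.8 CPM in mock, 39.3, 42.9 and 39.8 CPM in MYBup and 4.27, 4.96 and 5.75 CPM in wt cells. The 3 MYBup libraries were close to each other and far above all others, a change of 2.89 on the log2 scale against mock (SE 0.15, adjusted p = 5.21e-08). Mock and wt libraries overlapped (log2 fold change 0.14, adjusted p = 0.541). Plasmid and chromosomal transcripts share this row, and exons of an antisense gene overlap it.

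The libraries carried epithelial markers and few of other cell types. All 12 of the epithelial markers listed for 4T1 cells passed the filter, and 2 of them (16.7%) fell, Krt7 and Cldn4. Of 22 leukocyte markers only Cd14 was tested, and it fell by 0.81 on the log2 scale (adjusted p = 0.00179). In the same list 11 markers had 0 counts in all 6 libraries. The summed level of the leukocyte list was 8.43 to 12.3 CPM in mock and 6.08 to 6.68 CPM in MYBup libraries. Of 11 fibroblast and 11 endothelial markers, 2 and 3 were tested and 0 were called in edgeR, while 1 endothelial marker was called higher without MYBup replicate 1 or mock replicate 3. The part of such cells in the results was not tested, and in bulk RNA fewer cells of a type and less RNA per cell cannot be told apart.

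The 15 largest rises held genes that were far below MYBup in both references and genes that were lower in mock than in wt cells. Asgr1, Ptprz1, Tnfrsf19, Ace and Car9 were far below MYBup in both, though Car9 was plainly expressed there. Asgr1 (ENSMUSG00000020884, chromosome 11, 70054085 to 70057894) encodes a subunit of the asialoglycoprotein receptor, a lectin best known from hepatocytes. It stood at 0.142, 0.214 and 0 CPM in mock, 11.1, 9.46 and 9.71 CPM in MYBup and 0.0454, 0.0826 and 0.144 CPM in wt libraries. All 3 MYBup libraries were far above the other 6, and the change against mock was 6.32 on the log2 scale (SE 0.37, adjusted p = 1.95e-07). Tnfrsf19 encodes a receptor of the tumour necrosis factor family. Its level was 7.01, 6.51 and 7.31 CPM in MYBup, 1.33, 1.14 and 1.24 CPM in mock and 1.5, 1.53 and 1.44 CPM in wt libraries (log2 fold change 2.47, SE 0.18, adjusted p = 1.05e-06). The wt libraries lay just above mock, and both lay far below MYBup. Ace, the gene of angiotensin-converting enzyme, stood at 5.38, 5.77 and 7.36 CPM in MYBup against 1.38, 0.57 and 1.57 CPM in mock and 0.818, 0.413 and 1.49 CPM in wt libraries (log2 fold change 2.37, SE 0.42, adjusted p = 0.00122).

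Other large rises took MYBup cells near the wt level or above it, from a level in mock that was itself below wt. Rasef (ENSMUSG00000043003, chromosome 4, 73714579 to 73790994), which encodes a Rab GTPase with EF hands, had 0 counts in the 3 mock libraries and 412 counts in MYBup, at least 155-fold higher with a floor of 3 counts over the mock group. Such floors and the counting intervals below cover counting error only. Its level was 8.88, 9.32 and 9.44 CPM in MYBup and 2.82, 3.26 and 10.02 CPM in wt libraries, so 1 wt library lay above the MYBup range and the other 2 below it. Kyat3, the gene of a kynurenine aminotransferase, stood at 1.09, 0.998 and 0.719 CPM in mock, 9.12, 8.72 and 8.11 CPM in MYBup and 7.68, 6.98 and 7 CPM in wt libraries (log2 fold change 3.18, SE 0.20, adjusted p = 3.39e-07). Against wt its log2 fold change was 0.26 (adjusted p = 0.203) in MYBup and -2.92 (adjusted p = 1.23e-06) in mock cells. Epha8, an Eph receptor gene, showed the same order with 0.712, 0.642 and 0.915 CPM in mock, 2.68, 2.85 and 2.69 CPM in wt and 4.64, 6.28 and 6.29 CPM in MYBup libraries. Camsap3, whose protein caps microtubule minus ends, stood at 1.8, 1.93 and 2.16 CPM in mock, 5.36, 5.74 and 4.03 CPM in wt and 10.2, 11.3 and 11.6 CPM in MYBup libraries. Prex1, an activator of Rac, stood at 1.19, 0.713 and 1.5 CPM in mock, 5.91, 6.77 and 1.73 CPM in wt and 11.4, 15.7 and 13.9 CPM in MYBup libraries (log2 fold change 3.57, SE 0.41, adjusted p = 5.42e-05), with wt replicate 3 just above mock.

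Cpq and Hsf2bp were low in mock, intermediate in wt and high in MYBup libraries. Cpq encodes the secreted carboxypeptidase Q. It had 1 count in mock and 373 counts in MYBup libraries, a ratio of 422 (95% counting interval 75.3 to 16711), and 0.839 ± 0.0864 CPM in wt against 8.37 ± 0.0184 CPM in MYBup. Hsf2bp, a gene of meiotic recombination, stood at 0.142, 0.285 and 0.0654 CPM in mock, 2.68, 1.98 and 1.87 CPM in wt and 10.6, 8.72 and 9.55 CPM in MYBup libraries (log2 fold change 5.85, SE 0.29, adjusted p = 3.86e-08). Exons of Ace, Camsap3, Car9, Cpq, Hsf2bp and Kyat3 overlap exons of another gene on the opposite strand, and whether reads were counted by strand is not stated, so their counts are uncertain. The same holds below for Aldh1l2, Aldh7a1, Bhlhe40, Cebpa, Cpt1c, Dio2, Dll1, Dll4, Dlx1, Fstl3, Gata3, Gk, Grap, Irs1, Itga8, Krt7, Msn, Mylk, Nid1, Piezo1, Pitx1, Ptpre, Sdc3, Slc11a2, Stc1, Sulf2, Tbcel and Tmcc2, and for P2rx7, Slc39a7 and Spp1, which overlap a gene on their own strand.

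**Figure D1:**
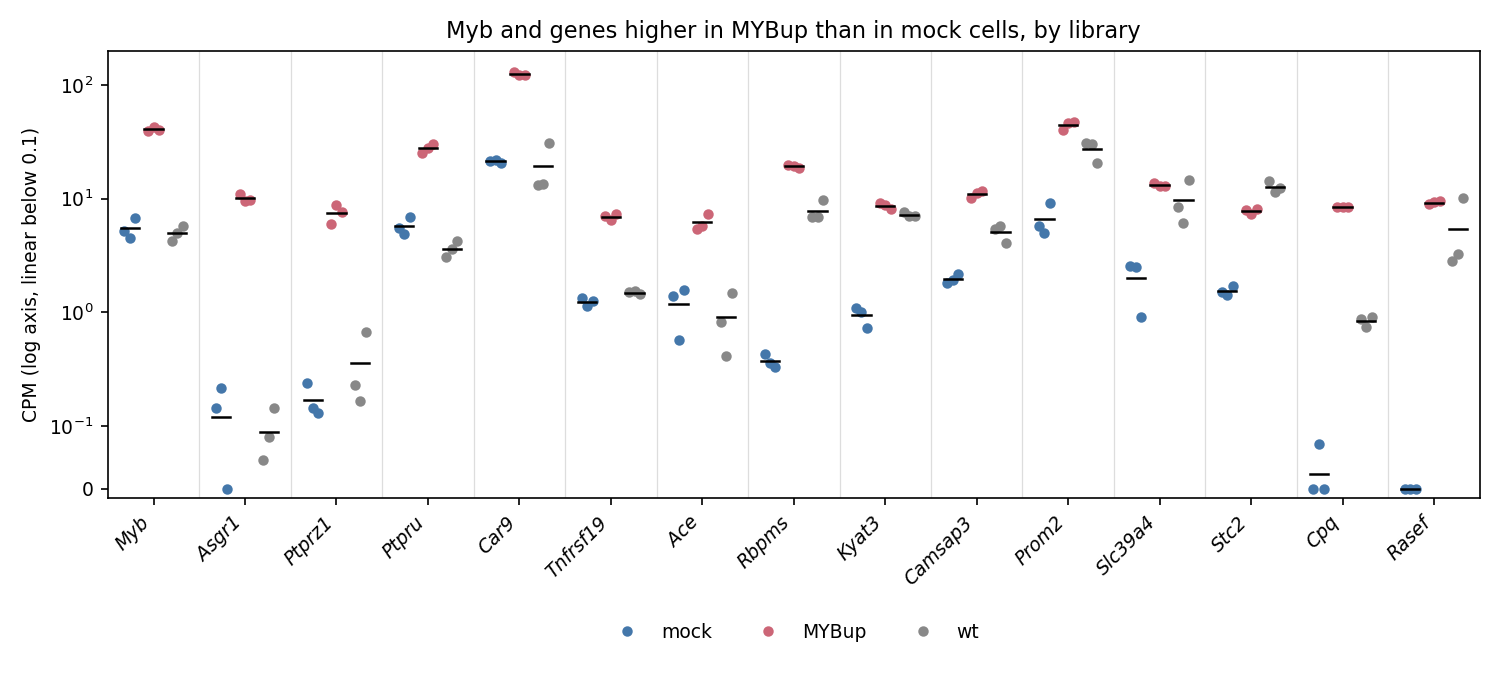
CPM of Myb and 14 genes that rose, on an axis that is logarithmic above 0.1 and linear below it; each point is a library (blue mock, red MYBup, grey wt) and each bar the mean of 3. Asgr1, Ptprz1, Ptpru, Car9, Tnfrsf19 and Ace were far below MYBup in both reference groups, while Kyat3, Prom2, Slc39a4, Stc2 and Rasef were low in mock only.

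c-Myb binds the core AACNG, so the 250 bases before the start of 4 genes raised over both references were read from RefSeq (GRCm38.p6) and searched for AACNG on both strands (AACNG or CNGTT, overlapping matches counted). They are shown 5′ to 3′ on the gene's strand with matches in capitals. Asgr1 has 2 entries, of which the upstream one is shown.
Asgr1 (chr11:70053874-70054123, plus strand): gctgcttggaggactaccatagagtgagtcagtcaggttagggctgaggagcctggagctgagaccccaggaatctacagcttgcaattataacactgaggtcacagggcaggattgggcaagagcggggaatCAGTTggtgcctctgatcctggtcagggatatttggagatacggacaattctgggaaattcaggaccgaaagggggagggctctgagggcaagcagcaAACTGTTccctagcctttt
Ptpru (chr4:131838279-131838528, minus strand): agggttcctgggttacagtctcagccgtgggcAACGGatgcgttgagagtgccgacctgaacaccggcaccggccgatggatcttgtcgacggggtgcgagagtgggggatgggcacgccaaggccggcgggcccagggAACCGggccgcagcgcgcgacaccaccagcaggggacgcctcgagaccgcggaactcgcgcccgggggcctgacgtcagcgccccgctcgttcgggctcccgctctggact
Ptprz1 (chr6:22875252-22875501, plus strand): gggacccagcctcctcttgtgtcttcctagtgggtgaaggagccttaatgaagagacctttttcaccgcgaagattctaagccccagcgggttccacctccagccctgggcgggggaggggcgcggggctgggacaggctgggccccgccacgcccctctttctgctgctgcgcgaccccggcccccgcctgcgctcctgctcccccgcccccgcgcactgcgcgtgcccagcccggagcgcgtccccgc
Car9 (chr4:43506776-43507025, plus strand): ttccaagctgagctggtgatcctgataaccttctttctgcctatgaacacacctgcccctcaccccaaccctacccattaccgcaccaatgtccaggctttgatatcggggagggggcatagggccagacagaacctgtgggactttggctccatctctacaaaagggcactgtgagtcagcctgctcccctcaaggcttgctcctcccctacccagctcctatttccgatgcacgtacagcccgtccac
The upstream Asgr1 entry held 3 matches, 2 of them overlapping near its end. The other entry held 4, of which 2 are these same overlapping matches, since the 2 windows share bases. The end of the upstream window, with its 2 overlapping matches, lies past the GENCODE start of Asgr1 printed above. Ptpru held 2, and Ptprz1 and Car9 held 0 in this window. This short core occurs in 76.8% of the 27025 RefSeq promoters of this length, so a match is a description and no site. Only 78.6% of the tested genes had an entry, so the shares of called genes and of the rest are not set side by side here.

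Several genes were nearly silent in MYBup cells and expressed in both references. Sh3tc2, whose protein acts in endosomal recycling, had 285 counts over the mock libraries and 0 in MYBup, at least 84-fold lower. It stood at 5.22, 5.92 and 6.01 CPM in mock and 5.09, 5.16 and 3.45 CPM in wt libraries. Mb21d2, a gene of the Mab21 family, had 281 and 0 counts, at least 82.8-fold lower, with 1.73, 3.22 and 3.36 CPM in wt libraries. Both genes had counts in every mock and wt library. Tbcel, which encodes a tubulin-folding cofactor, had 1 count in MYBup against 377 in mock, a ratio of 333 (95% counting interval 59.4 to 13197), and 4.06 ± 0.849 CPM in wt libraries. Tmcc2, a transmembrane protein gene, stood at 6.21, 4.49 and 6.73 CPM in mock, 0, 0.148 and 0.213 CPM in MYBup and 4.95, 5.78 and 4.17 CPM in wt libraries (log2 fold change -5.37, SE 0.41, adjusted p = 1.5e-06). No MYBup library reached the lowest mock or wt value.

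A beta-tubulin gene, a deiodinase and a transcription factor gene were also among the 15 largest falls. Tubb2b stood at 5.55, 6.2 and 5.82 CPM in mock, 0.326, 0.37 and 0.32 CPM in MYBup and 1.5, 1.12 and 4.65 CPM in wt libraries (log2 fold change -4.09, SE 0.63, adjusted p = 0.000442). Dio2, whose enzyme activates thyroid hormone, had another order. Its level was 17.7, 14 and 16.9 CPM in mock, 1.06, 1.04 and 1.39 CPM in MYBup and 0.863, 1.24 and 1.87 CPM in wt libraries, so MYBup cells overlapped wt and mock cells stood apart. The change from mock was -3.78 (SE 0.26, adjusted p = 5.97e-07) and that from wt -0.16 (adjusted p = 0.722). Grap, a Grb2-related adaptor gene, and Zfhx4, a zinc finger homeobox gene, fell by 3.25 and 3.15 on the log2 scale, with 9.89 and 4.35 CPM in wt. Of the 15 largest falls, 4 lay on chromosome 18 (B4galt6, Sh3tc2, Epb41l4a and Piezo2), which holds 304 of the 11291 tested genes.

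**Figure D2:**
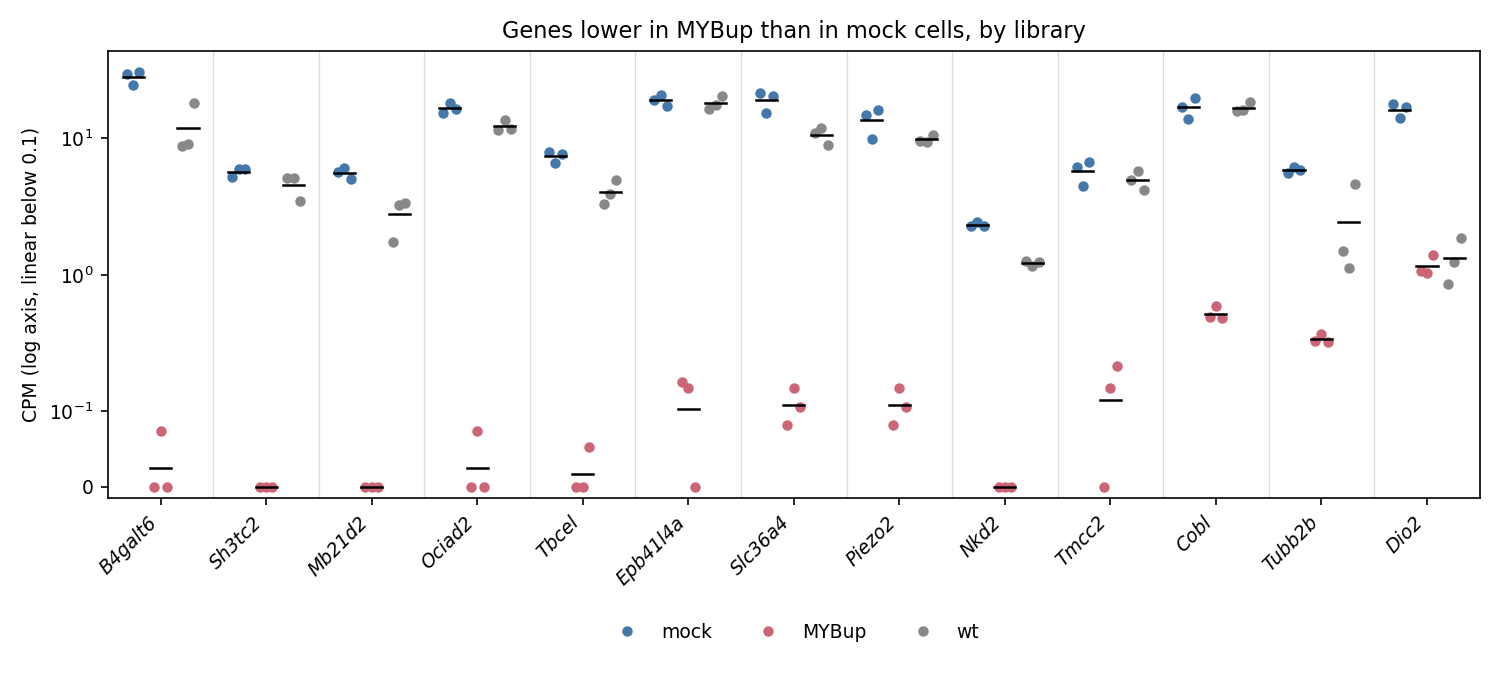
CPM of 13 genes that fell, on an axis that is logarithmic above 0.1 and linear below it; each point is a library (blue mock, red MYBup, grey wt) and each bar the mean of 3. All wt libraries lie above all MYBup libraries for every gene shown but Dio2, which was as low in wt as in MYBup.

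Of 19 tested genes of the Myb family and its partners 1, Myb itself, rose and 3 fell (21.1% called, against 26.9% of all tested genes, median log2 fold change -0.06). Cebpa, a transcription factor gene that works with c-Myb in myeloid cells, stood at 0.901, 1.07 and 1.5 CPM in mock, 0, 0 and 0.0533 CPM in MYBup and 0, 0.124 and 0.0959 CPM in wt libraries (log2 fold change -5.27, SE 0.81, adjusted p = 0.000417), low in both MYBup and wt. Lin54 and Lin9 encode parts of the MuvB complex that works with B-Myb. Lin54 fell by 0.47 and Lin9 by 0.24 on the log2 scale, and Lin9 was not called without mock replicate 2 (adjusted p = 0.0738) or in 8 other settings. Without mock replicate 2 the list had 5 lower members, and without any of MYBup replicates 1 to 3 or mock replicate 1 it had 2.

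Of 24 tested genes reported elsewhere as c-Myb targets, 2 rose and 6 fell, with a median of -0.11. The share called in either direction, 33.3%, compares with 26.9% of all tested genes. Gata3, a transcription factor of luminal mammary cells, rose from 76.6, 79.4 and 94.5 CPM in mock to 124, 135 and 134 CPM in MYBup libraries (log2 fold change 0.65, SE 0.10, adjusted p = 0.000382), against 75.3 ± 4.05 CPM in wt. Cited2, a coactivator gene, rose by 0.46 on the log2 scale. Ccne1, the gene of cyclin E1, went the other way, from 22.4, 26.4 and 19.9 to 16.2, 14.6 and 13.4 CPM (log2 fold change -0.64, SE 0.11, adjusted p = 0.00105), with 13.7 ± 0.626 CPM in wt. Ccnd1, Cdk6, Birc3, Mad1l1 and Myadm were the other called members, all lower by less than 1 on the log2 scale. Leaving out 1 library gave 2 to 3 higher and 4 to 5 lower members, the fewest lower without MYBup replicate 3 or mock replicate 1. With each library centred per chromosome 3 were higher and 2 lower, so more falls than rises was not seen there.

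Receptor tyrosine phosphatases are transmembrane enzymes that remove phosphate from tyrosines and counter receptor kinases. 4 of 8 tested members rose and 1 fell (62.5% called, median log2 fold change 0.31). Ptprz1 (ENSMUSG00000068748, chromosome 6, 22875502 to 23052916), which binds pleiotrophin, stood at 0.237, 0.143 and 0.131 CPM in mock, 5.95, 8.72 and 7.63 CPM in MYBup and 0.227, 0.165 and 0.671 CPM in wt libraries (log2 fold change 5.33, SE 0.40, adjusted p = 1.5e-06). Every MYBup library was above all mock and wt libraries. Ptpru was also highest in MYBup, with 25.4, 28.2 and 30.5 CPM against 5.46, 4.92 and 6.93 CPM in mock and 3.04, 3.59 and 4.22 CPM in wt libraries. Ptprf, the gene of the phosphatase LAR, rose from 145, 92.5 and 173 to 189, 254 and 256 CPM, with mock replicate 2 the lowest of all. Ptpre fell by 0.41 on the log2 scale, a call that ended when each library was centred per chromosome (adjusted p = 0.0903). The other 8 members did not pass the filter.

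Among called receptor tyrosine kinase genes more were lower than higher. 2 of 21 tested kinase genes rose and 5 fell (33.3% called, median log2 fold change -0.09). Egfr, the epidermal growth factor receptor gene, stood at 2.75, 2.64 and 3.4 CPM in mock, 0.407, 0.961 and 1.17 CPM in MYBup and 5.45, 3.63 and 5.56 CPM in wt libraries (log2 fold change -1.71, SE 0.33, adjusted p = 0.00205), with MYBup below both references. Axl and Tyro3, receptors of the Gas6 ligand, fell by 0.60 and 0.59 on the log2 scale. Axl stood at 1748, 1533 and 1625 CPM in mock and 1064, 1082 and 1086 CPM in MYBup libraries. Ltk fell from 3.51, 4.42 and 3.2 to 2.36, 1.33 and 1.71 CPM and stood at 8.04, 8.14 and 8.73 CPM in wt. Ddr2, a collagen receptor, and Ptk7 were the 2 members that rose, by 0.53 and 0.50. The number higher was 1 without MYBup replicate 2 or 3 or mock replicate 1 or 2.

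Among 32 genes of MAPK feedback and the early response, 3 rose and 8 fell (34.4% called, median log2 fold change -0.05). Spry4, which restrains signalling from receptor kinases to ERK, stood at 27.8, 26.6 and 31 CPM in mock, 11, 11.8 and 10.3 CPM in MYBup and 13.3, 15.4 and 16.3 CPM in wt libraries (log2 fold change -1.37, SE 0.14, adjusted p = 1.98e-05). The ERK phosphatase genes Dusp9, Dusp5, Dusp7 and the stress kinase phosphatase gene Dusp10 fell by 0.63, 0.57, 0.38 and 0.36 on the log2 scale. Spry2, a relative of Spry4, rose by 0.45. Fos, an early gene, stood at 10.4, 18.6 and 6.67 CPM in mock, 26.3, 23.4 and 30.2 CPM in MYBup and 3.59, 7.19 and 7.86 CPM in wt libraries (log2 fold change 1.18, SE 0.31, adjusted p = 0.0136). Its call ended without mock replicate 1 (adjusted p = 0.0616) or MYBup replicate 3 (adjusted p = 0.0538). Without either of these libraries 1 member rose, and without mock replicate 3, 6 rose and 6 fell.

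Wnt pathway genes changed in both directions, 7 of 32 higher and 7 lower (43.8% called, median log2 fold change -0.03). Among ligands, Wnt10b stood at 0.0949, 0 and 0.0654 CPM in mock, 1.55, 2.22 and 2.29 CPM in MYBup and 0.808 ± 0.348 CPM in wt libraries. It had 3 counts in mock and 92 in MYBup, a ratio of 34.7 (95% counting interval 11.5 to 171). Wnt10a rose by 2.00 on the log2 scale, while Wnt7a fell by 1.52 and Wnt7b by 0.31. The ligands thus moved in opposite directions. Among receptors and their regulators, Fzd1 rose from 3.82 to 11.2 mean CPM. Rnf43, a ubiquitin ligase that removes Frizzled receptors, stood at 0.0949, 0.143 and 0 CPM in mock, 3.5, 4.21 and 4.32 CPM in MYBup and 7.59, 8.34 and 4.51 CPM in wt libraries (log2 fold change 5.54, SE 0.47, adjusted p = 4.34e-06). Mock cells stood apart from both others in this gene. Sfrp1, a secreted Wnt inhibitor, fell from 20.6, 21 and 25.1 to 2.36, 3.25 and 3.31 CPM (log2 fold change -2.88, SE 0.18, adjusted p = 2.7e-07), against 12.4, 12.9 and 16 CPM in wt. Nkd2, an inhibitor that binds Dishevelled, had 117 counts in mock and 0 in MYBup libraries, at least 34.5-fold lower, with 1.27, 1.16 and 1.25 CPM in wt. The transcription factor genes Lef1 and Tcf7, which carry the pathway's output, fell by 1.46 and 0.86 on the log2 scale. Leaving out 1 library gave 6 to 7 higher and 5 to 9 lower members.

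Notch pathway genes also split, 5 of 24 higher and 5 lower (41.7% called, median log2 fold change -0.08). The ligand gene Jag2 stood at 17.4, 11 and 21.8 CPM in mock, 2.12, 4.14 and 3.36 CPM in MYBup and 7.27, 7.52 and 10.9 CPM in wt libraries (log2 fold change -2.37, SE 0.29, adjusted p = 7.45e-05), lowest in MYBup. Dll1, another ligand gene, fell from 25, 22.6 and 25.8 to 10.3, 11.9 and 12.6 CPM and stood at 13.5, 13.3 and 10.7 CPM in wt, so here mock was the group apart. Dll4 went up, from 12.5, 12.8 and 15.4 to 24, 27 and 23 CPM (log2 fold change 0.86, SE 0.16, adjusted p = 0.00147), with 6.36, 7.19 and 7.62 CPM in wt. Lfng, a glycosyltransferase gene that modifies Notch receptors, rose by 0.98 on the log2 scale. Jag1 fell by 0.46. Without MYBup replicate 1, 2 or 3 or mock replicate 1 or 2 the number higher was 3, and without MYBup replicate 3 or mock replicate 3 the number lower was 3.

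Of 22 tested BMP pathway and Id genes 7 rose and 1 fell (36.4% called, median log2 fold change 0.09). Bmp7, a BMP ligand gene, stood at 51.5, 51.1 and 42.7 CPM in mock, 111, 113 and 122 CPM in MYBup and 24.4, 24.8 and 40.7 CPM in wt libraries (log2 fold change 1.25, SE 0.16, adjusted p = 0.000103), highest in MYBup. Smad6, an inhibitor induced by BMP signalling, rose from 2.28, 2.21 and 3.27 to 4.4, 5.25 and 5.92 CPM, with 2.32 ± 0.558 CPM in wt. Id1, Id2 and Id3, which encode inhibitors of basic helix-loop-helix factors, rose by 0.90, 0.60 and 0.86 on the log2 scale. Fstl3, a secreted binder of activin, rose from 6.4, 5.7 and 6.34 to 15.7, 18 and 15.7 CPM. Inhbb, the gene of an activin subunit, fell from 2.56, 3.07 and 1.5 to 0.244, 0.296 and 0.267 CPM (log2 fold change -3.11, SE 0.39, adjusted p = 9.61e-05), against 0.727, 0.785 and 1.1 CPM in wt. Leaving out 1 library gave 5 to 6 higher members, and the number lower was 2 without mock replicate 2.

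Of 27 tested guidance genes 8 fell and 5 rose (48.1% called, median log2 fold change -0.09). Semaphorins are ligands of plexins and neuropilins that steer cell movement. Sema3b fell from 4.03, 4.35 and 5.36 to 1.38, 1.26 and 1.28 CPM (log2 fold change -1.8, SE 0.29, adjusted p = 0.000595), and wt stood at 4, 3.84 and 5.85 CPM. Sema6a, Sema3a, Sema5a, Ntn4 and the receptor gene Plxnd1 fell by 1.24, 1.02, 0.81, 1.23 and 1.05 on the log2 scale. Sema4f and Sema4g went up, Sema4f from 0.0949, 0.214 and 0 to 1.63, 0.813 and 0.96 CPM and Sema4g from 0.617, 0.285 and 0.392 to 2.77, 1.48 and 2.19 CPM. Nrp1, a coreceptor gene of class 3 semaphorins, rose from 56.5 to 116 mean CPM. Which direction had more calls turned on single libraries. Without mock replicate 1, 3 were lower and 5 higher, without mock replicate 2, 12 and 4, without mock replicate 3, 6 and 6, and without MYBup replicate 1, 5 and 5. With each library centred per chromosome 6 were lower and 6 higher. Of 13 tested ephrin and Eph genes, a list that does not hold the Epha8 described above, 1 rose (Ephb6, 0.67) and 1 fell (Epha4, -0.56), 15.4% in all. Ephb6 was not called without MYBup replicate 2 or 3 or mock replicate 1 or 2, nor Epha4 without mock replicate 1 or 3.

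Adhesion receptors changed in both directions, 9 of 32 higher and 11 lower (62.5% called, median log2 fold change -0.13). Itgb2, the beta 2 integrin gene, stood at 144, 136 and 80.7 CPM in mock, 16, 15.9 and 15.5 CPM in MYBup and 22.4, 19.4 and 48.2 CPM in wt libraries (log2 fold change -2.93, SE 0.31, adjusted p = 2.53e-05). Mock replicate 3 was the lowest of its group and still far above MYBup. The integrin genes Itgb7, Itga8 and Itga2, the last a collagen receptor subunit, fell by 2.43, 1.78 and 1.38 on the log2 scale. Vcam1 and Icam1 encode ligands of leukocyte integrins. Icam1 fell by 2.57 (SE 0.85, adjusted p = 0.0384) and Vcam1 fell by 1.14. Cdh17, a cadherin of intestinal epithelium, rose from 28.3, 27 and 18.6 to 85, 88.8 and 88.3 CPM (log2 fold change 1.82, SE 0.20, adjusted p = 3.93e-05), against 27.7, 34.6 and 19.8 CPM in wt. Cadm1, Mcam, L1cam and Itgb6 rose by 1.51, 1.41, 1.31 and 1.2. Itgb1, the shared beta subunit of many integrins, rose by 0.28. Without MYBup replicate 1 and mock replicate 2 together, 5 members were higher and 10 lower, and without MYBup replicate 2 or 3 alone 6 were higher.

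Of 39 tested matrix genes 11 rose and 5 fell (41% called, median log2 fold change 0.17). Col4a1 and Col4a2, the main collagen genes of basement membranes, rose by 0.81 and 0.86 on the log2 scale. Ecm1, Col6a1 and Tnc rose by 1.03, 0.74 and 0.57. Thbs2, a thrombospondin gene, stood at 0, 0.143 and 0.0654 CPM in mock and 0.815, 1.11 and 0.907 CPM in MYBup libraries, with 0.0711 ± 0.085 CPM in wt. Spp1, the gene of osteopontin, fell from 867, 918 and 745 to 379, 349 and 354 CPM (log2 fold change -1.23, SE 0.16, adjusted p = 0.000133), and wt stood at 357, 361 and 558 CPM. Nid1, a laminin-binding basement membrane protein, fell from 2.85, 1.71 and 3.27 to 1.06, 1.11 and 1.07 CPM. Npnt, an integrin ligand of epithelia outside this list and one of the 8 genes of highest mean CPM that changed at least 2-fold, stood at 70.9, 60.03 and 124 CPM in mock and 195, 217 and 215 CPM in MYBup libraries (log2 fold change 1.3, SE 0.22, adjusted p = 0.000844), with mock replicate 3 nearest to MYBup. More rises than falls was not seen in every setting. Without MYBup replicate 2 or 3, 4 matrix genes were higher and 5 lower, and without mock replicate 2, 5 and 6. Without MYBup replicate 1 and mock replicate 2 together 7 were higher and 5 lower, and without mock replicate 3, 7 and 5. Without mock replicate 1, 9 were higher and 2 lower.

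Heparan sulfate chains bind growth factors at the cell surface, and 4 of 23 tested genes of their proteoglycans and enzymes rose and 2 fell (26.1% called, median log2 fold change 0.05). Sdc3, the core protein syndecan 3, stood at 20.9, 19.96 and 31.2 CPM in mock, 90.7, 104 and 99.6 CPM in MYBup and 49.8, 51.3 and 34.4 CPM in wt libraries (log2 fold change 2.03, SE 0.19, adjusted p = 1.21e-05). Sulf2, which removes 6-O-sulfates, stood at 3.32, 3.99 and 11.3 CPM in mock and 28.3, 29.2 and 30.3 CPM in MYBup libraries, with mock replicate 3 above the other mock libraries. Hs3st1, a 3-O-sulfotransferase gene, fell from 6.26, 6.13 and 5.43 to 2.36, 2.29 and 2.61 CPM and stood at 0.773, 0.909 and 1.15 CPM in wt. Extl2 and Extl3, of chain initiation, rose by 0.47 and 0.39. Without mock replicate 1 the number lower was 1.

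Glycosphingolipid and ceramide enzymes changed in both directions, 5 of 25 higher and 6 lower (44% called, median log2 fold change -0.10). B4galt6 and B4galt5 both make lactosylceramide, the root of most glycosphingolipids. B4galt6 had 1 count in the MYBup libraries and 8.77, 9.13 and 18.1 CPM in wt. B4galt5 fell from 287, 288 and 332 to 199, 195 and 194 CPM (log2 fold change -0.62, SE 0.09, adjusted p = 0.000353), but stood at 166, 181 and 144 CPM in wt, below MYBup. Ugcg, whose enzyme supplies glucosylceramide, fell by 0.22 on the log2 scale. St3gal2, a sialyltransferase gene of later steps, rose by 0.56. Without mock replicate 1 the number higher was 3, and without MYBup replicate 3 the number lower was 3.

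Of 35 tested genes of tight junctions, desmosomes and keratins, 5 rose and 10 fell (42.9% called, median log2 fold change -0.14). Krt14 and Krt15 are keratins of basal epithelial cells. Krt14 stood at 1.61, 1.35 and 2.55 CPM in mock, 8.88, 7.91 and 8.37 CPM in MYBup and 4.86, 6.15 and 11.7 CPM in wt libraries (log2 fold change 2.19, SE 0.38, adjusted p = 0.00109), so MYBup was near wt. Krt15 stood at 0.237, 0.285 and 0.0654 CPM in mock, 0.815, 0.961 and 0.853 CPM in MYBup and 0.032 mean CPM in wt. Krt7, a keratin of simple epithelium, fell from 583, 667 and 641 to 354, 357 and 373 CPM (log2 fold change -0.80, SE 0.11, adjusted p = 0.00018). The claudin gene Cldn4 stood at 54, 55.7 and 78.8 CPM in mock, 38.5, 31.2 and 34.2 CPM in MYBup and 115, 93.1 and 123 CPM in wt libraries, lowest in MYBup. Cldn9, Cldn12 and Cldn23 fell by 1.69, 0.54 and 0.96 on the log2 scale, while the desmosome genes Dsg2 and Pkp2 rose by 0.94 and 0.75. Cldn1 had the largest fall of the list and the least stable call, at 0.712, 0.856 and 0.654 CPM in mock and 0.163, 0.0739 and 0 CPM in MYBup libraries (log2 fold change -3.3, SE 1.14, adjusted p = 0.0461), and was not called when any 1 library was left out (adjusted p = 0.0569 to 0.168). Leaving out 1 library gave 4 to 6 higher and 7 to 10 lower members.

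Actin and contractile genes fell more often than they rose, 11 of 41 against 5 (39% called, median log2 fold change -0.14). Cobl, which nucleates actin filaments, stood at 17.1, 14 and 19.9 CPM in mock, 0.489, 0.591 and 0.48 CPM in MYBup and 15.8, 16.1 and 18.6 CPM in wt libraries (log2 fold change -5.02, SE 0.31, adjusted p = 2.92e-07). Myo5b, a myosin motor of apical recycling, fell from 7.02, 4.78 and 6.21 to 0.57, 1.11 and 0.747 CPM, with 6.13, 7.89 and 8.49 CPM in wt. Both genes were low in MYBup alone among these groups. Msn, the gene of moesin, which ties actin to the membrane, fell from 2927, 2515 and 2618 to 1225, 1296 and 1316 CPM (log2 fold change -1.07, SE 0.09, adjusted p = 3.83e-06), with 1914, 1980.1 and 2263 CPM in wt. Its relative Rdx fell by 0.26, and Lcp1, an actin bundler, by 1.2. Actn1, Actn4, Tagln2 and Tpm1 fell by less than 0.4 each. Mylk, the gene of myosin light chain kinase, rose from 1.94, 1.85 and 1.9 to 5.62, 7.25 and 6.03 CPM and stood at 8.13, 8.38 and 6.43 CPM in wt. The number lower was 6 without MYBup replicate 2 or 3, when 1032 and 964 of all tested genes were lower, against 1423. The number higher was 2 without MYBup replicate 3 or mock replicate 1, when 1082 and 1114 of all tested genes were higher, against 1615.

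Caveolae, tetraspanins and prominins were higher in 7 and lower in 6 of 28 tested members (46.4% called, median log2 fold change -0.02). Prom2, a protein of membrane protrusions, stood at 5.74, 4.99 and 9.15 CPM in mock, 40.4, 46.1 and 47.6 CPM in MYBup and 30.7, 30.4 and 20.6 CPM in wt libraries (log2 fold change 2.76, SE 0.21, adjusted p = 1.56e-06). Cav1, the main caveolin gene, fell from 126, 133 and 115 to 52.4, 51.2 and 49.2 CPM (log2 fold change -1.29, SE 0.17, adjusted p = 0.000141) and stood at 49.8, 53.2 and 68.5 CPM in wt, so mock was the group apart. Cav2 and Cavin2, which build caveolae with it, fell by 0.53 and 0.61. Tspan13 rose from 1.33, 1.5 and 1.57 to 5.3, 5.62 and 5.97 CPM, above the 0.774 ± 0.63 CPM of wt. Without mock replicate 1 the number higher was 4.

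Ion channels changed close to the background share, 4 of 31 higher and 4 lower (25.8% called, median log2 fold change 0.00). The 2 mechanosensitive Piezo genes differed in direction. Piezo2 had 5 counts in MYBup against 703 in mock, with 9.5, 9.46 and 10.6 CPM in wt. Piezo1 stood at 247, 173 and 273 CPM in mock and 301, 390.1 and 400.3 CPM in MYBup libraries (log2 fold change 0.65, SE 0.14, adjusted p = 0.00443), a call that ended after centring per chromosome (adjusted p = 0.0587), and at 362, 355 and 329 CPM in wt. P2rx7, an ATP-gated channel gene, fell from 8.06, 7.84 and 6.08 to 0.815, 0.961 and 1.12 CPM (log2 fold change -2.89, SE 0.32, adjusted p = 3.9e-05) and stood at 1.18, 1.4 and 1.97 CPM in wt. Ano9, a scramblase of the anoctamin family, fell from 0.949, 1.07 and 1.18 to 0.0815, 0.148 and 0.107 CPM.

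Carbonic anhydrases interconvert carbon dioxide and bicarbonate, and 5 of 20 tested genes of these enzymes and of acid transport rose and 2 fell (35% called, median log2 fold change 0.11). Car9 and Car12, which encode membrane enzymes facing outward, rose, and the membrane forms Car4 and Car14 did not pass the filter. Car9 stood at 21.3, 22 and 20.5 CPM in mock, 131, 122 and 122 CPM in MYBup and 13.2, 13.3 and 31.1 CPM in wt libraries. Car12 stood at 23.1, 20.1 and 19.6 CPM in mock, 79.3, 87.4 and 84.4 CPM in MYBup and 67.6, 67.2 and 76 CPM in wt libraries (log2 fold change 2.00, SE 0.14, adjusted p = 6.18e-07). MYBup cells were thus above both references for Car9 and near wt for Car12. Slc4a4, a sodium bicarbonate cotransporter gene, fell from 8.21, 4.85 and 8.76 to 1.96, 2.07 and 1.81 CPM (log2 fold change -1.92, SE 0.29, adjusted p = 0.000419). Slc16a1, a lactate transporter, rose by 0.28. Without MYBup replicate 3 the number higher was 3.

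Of 27 tested genes of zinc, iron and copper handling, 6 rose and 3 fell (33.3% called, median log2 fold change 0.12). Slc39a4, the main intestinal zinc importer, stood at 2.56, 2.5 and 0.915 CPM in mock, 13.8, 12.8 and 13 CPM in MYBup and 8.36, 6.11 and 14.5 CPM in wt libraries. The zinc importer genes Slc39a1, Slc39a7 and Slc39a11 and the exporter genes Slc30a6 and Slc30a7 rose by 0.45, 0.45, 0.36, 0.59 and 0.35. Slc30a4 and Slc30a5 fell by 0.33 and 0.28. Slc11a2, the iron importer DMT1, fell from 48.4, 48.1 and 41.8 to 29.2, 27.6 and 29 CPM (log2 fold change -0.69, SE 0.10, adjusted p = 0.00034), with 60.7, 61.8 and 50.1 CPM in wt. The number lower was 1 without MYBup replicate 1, and the number higher 4 without MYBup replicate 2 or 3 or mock replicate 1. Of 19 amino acid transporter genes 1 rose (Slc7a6, 0.46, not called after centring per chromosome, adjusted p = 0.0874) and 3 fell, 21.1% in all. Without mock replicate 2, 5 fell. Slc36a4, a proton-coupled transporter, fell from 21.5, 15.4 and 20.4 to 0.0815, 0.148 and 0.107 CPM.

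Of 32 tested genes of serine, folate and methionine metabolism, polyamine enzymes included, 9 fell and 4 rose (40.6% called, median log2 fold change -0.05). Aldh1l2, a mitochondrial folate enzyme, stood at 12.6, 8.98 and 11.8 CPM in mock, 1.79, 1.85 and 2.45 CPM in MYBup and 0.682, 0.413 and 2.64 CPM in wt libraries (log2 fold change -2.43, SE 0.41, adjusted p = 0.000889), so MYBup was near wt. The serine synthesis genes Psat1 and Psph and the mitochondrial folate genes Shmt2 and Mthfd2 fell by 0.52, 0.39, 0.41 and 0.49 on the log2 scale. Odc1, the first enzyme of polyamine synthesis, fell from 1725, 1851 and 1366 to 1053, 929 and 939 CPM (log2 fold change -0.76, SE 0.11, adjusted p = 0.00034), with 1140.3 ± 37.6 CPM in wt. Ggh, which trims folate chains, rose from 6.88, 6.49 and 9.09 to 15, 15.9 and 13.3 CPM. The number lower was 5 without MYBup replicate 2, and the number higher was 2 without MYBup replicate 3 or mock replicate 1.

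Of 37 tested carbonyl, aldehyde and glutathione enzymes, 9 rose and 3 fell (32.4% called, median log2 fold change 0.01). Cbr1, a carbonyl reductase gene, rose from 5.31, 6.92 and 6.15 to 17.7, 18 and 18.2 CPM (log2 fold change 1.56, SE 0.19, adjusted p = 6.51e-05), with 5, 4.75 and 6.71 CPM in wt. Aldh7a1 rose from 14, 13 and 10.4 to 31.9, 26.4 and 29.9 CPM. Akr1c13, an aldo-keto reductase, fell from 4.27, 4.42 and 3.99 to 1.22, 0.665 and 0.533 CPM. It belongs to a cluster of similar genes among which reads may be split. Gclm, Gstp1, Nqo1 and Txnrd1 rose by 0.38, 0.40, 0.55 and 0.20. Without mock replicate 3, 3 were higher and 4 lower, and without MYBup replicate 1, 4 and 4. Without MYBup replicate 2 or 3 or mock replicate 1 the number lower was 1, and without mock replicate 1 the number higher was 5. Fatty acid oxidation and lipid storage genes were called at 22.9%, 4 of 35 higher and 4 lower, with 2 higher without mock replicate 3. There Decr1, an enzyme for unsaturated fatty acids, fell from 8.44, 11.6 and 5.75 to 1.14, 1.63 and 1.28 CPM, and Cpt1c had 0 counts in mock and 22 in MYBup libraries, at least 8.3-fold higher, with 2.06 ± 0.345 CPM in wt.

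Cell death genes were higher in 5 and lower in 8 of 31 tested members (41.9% called, median log2 fold change -0.11). The 3 largest falls were those of neighbouring genes on chromosome 9, Casp1, Casp4 and Casp12, which encode the inflammatory group of caspases. Casp12 stood at 11.8, 11.3 and 10.002 CPM in mock, 3.67, 2.74 and 3.31 CPM in MYBup and 3.23, 3.22 and 6.14 CPM in wt libraries (log2 fold change -1.77, SE 0.28, adjusted p = 0.000568). Casp1 stood at 4.32, 4.35 and 1.7 CPM in mock and 0.163, 0.148 and 0.107 CPM in MYBup libraries, with mock replicate 3 lowest of its group. Casp4 fell from 2.47, 1.57 and 1.05 to 0.163, 0 and 0.107 CPM. Bid and Bcl2l11, which promote apoptosis, fell by 0.83 and 0.43, while Bmf, Bad and Bok, which also promote it, rose by 1.47, 0.49 and 0.47. Mcl1, an inhibitor of apoptosis, rose by 0.42 and Bcl2l1 fell by 0.34. Of 27 tested p53 target genes 1 rose and 2 fell, 11.1% in all, against 26.9% of all tested genes. Without mock replicate 3, 2 rose, and without any other 1 library 0 rose, while 1 to 3 fell.

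Lists of regulators of chromatin, RNA and the clock had shares of called genes near or below that of all tested genes. Of 41 tested Polycomb and DNA methylation genes 4 rose and 2 fell (14.6% called, median log2 fold change 0.01). Tet1, whose enzyme oxidises methylcytosine, had 0 counts in mock and 69 in MYBup libraries, at least 26-fold higher. It stood at 1.06, 1.77 and 1.71 CPM in MYBup and 1.38 ± 0.174 CPM in wt, so mock was the group apart. Without MYBup replicate 2 the counts were 2 and 1, without MYBup replicate 3 the number lower was 1, and without mock replicate 2 the number lower was 4. Of 34 splicing and RNA-binding genes 4 rose and 4 fell (23.5% called), with 1 lower without MYBup replicate 1 or mock replicate 3 and 2 higher without MYBup replicate 2 or mock replicate 1. Rbpms stood at 0.427, 0.356 and 0.327 CPM in mock, 6.86, 6.86 and 9.78 CPM in wt and 19.9, 19.4 and 18.7 CPM in MYBup libraries. Msi1, the gene of Musashi 1, stood at 0.0474, 0.143 and 0.0654 CPM in mock, 0.896, 0.665 and 0.533 CPM in MYBup and 0.619 ± 0.172 CPM in wt libraries (log2 fold change 2.98, SE 0.66, adjusted p = 0.00493). Of 27 tested genes in the homeobox list, which does not hold the Zfhx4 described above, 5 rose and 1 fell (22.2% called), with Pitx1 at 0.92 and Dlx1 at 0.55. Of 22 clock genes 4 rose and 2 fell (27.3% called), with Per2 at 0.80 and Bhlhe40 at -0.75. Without mock replicate 3, 8 homeobox genes rose, and without mock replicate 1, 2 fell. Pitx1 overlapped between the groups and was not called without MYBup replicate 2 or 3 or mock replicate 1 or 2 (adjusted p = 0.0941 to 0.162). Without MYBup replicate 3 only 1 clock gene rose and Per2 was not called (adjusted p = 0.0704), and without any MYBup library or mock replicate 1 the number lower was 1. Of 35 tested heat shock and chaperone genes 6 were higher and 6 lower (34.3% called, against 26.9%), an excess not seen in every setting. Without mock replicate 2, 5 were higher and 4 lower, with 3386 of 11402 tested genes called. Without mock replicate 3 these were 4 and 4, with 2802 of 11409, and without MYBup replicate 3, 3 and 3, with 2046 of 11386. Without MYBup replicate 1 or 2 or mock replicate 1 the share was close to that of all tested genes. The number higher was 3 without MYBup replicate 2 or 3 or mock replicate 1, and the number lower was 3 without MYBup replicate 1 or 3. Of 10 genes of the IGF axis and the stanniocalcins 1 rose and 2 fell (30% called). Stc2 rose from 1.52, 1.43 and 1.7 to 7.98, 7.32 and 8.11 CPM, with 14.3, 11.5 and 12.4 CPM in wt, and Stc1 and Irs1 fell by 0.79 and 0.80.

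**Figure D3:**
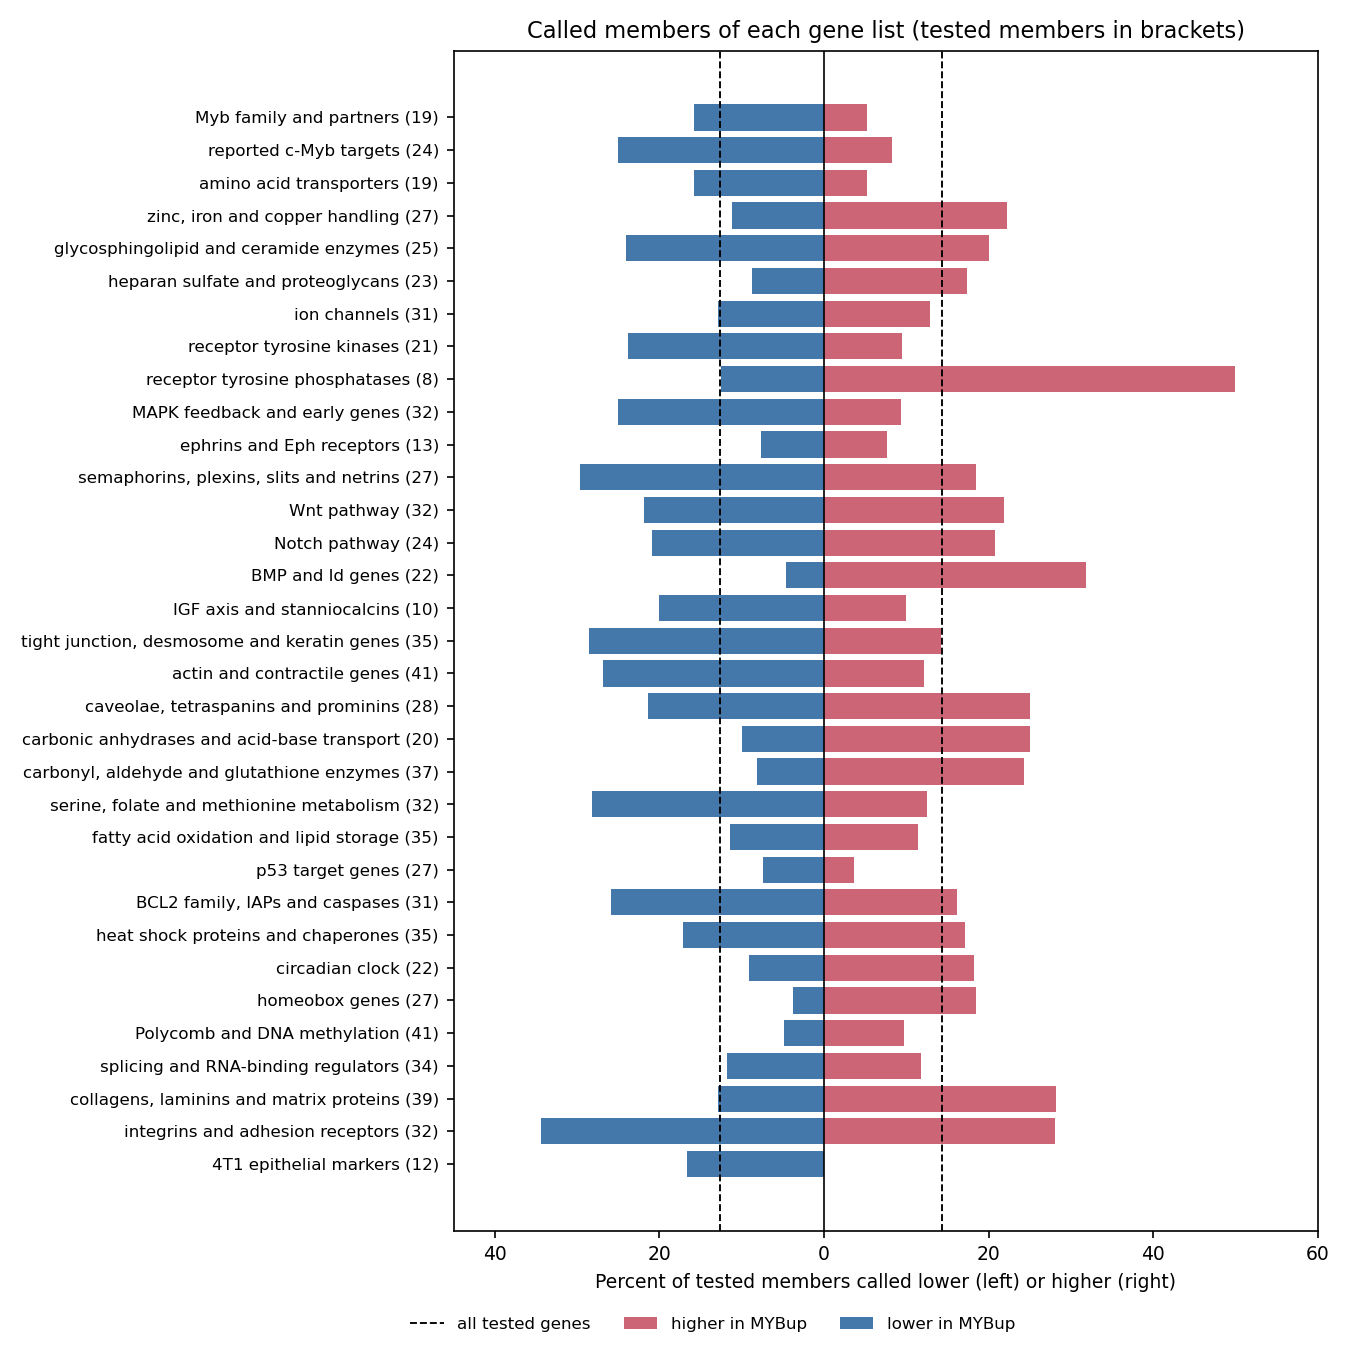
Percent of the tested members of the gene lists described here called higher (red, right) or lower (blue, left) in MYBup than in mock cells; dashed lines mark the share of all tested genes, 14.3% higher and 12.6% lower. Bars longer than the lines on both sides, as for adhesion receptors, mark lists called more often than all tested genes in both directions. The lists were chosen with earlier results of these data known, so these shares are descriptions only.

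Changes were unevenly spread over the chromosomes. On chromosome 14, 44.8% of 375 tested genes were higher and 2.93% lower in MYBup cells, against 14.3% and 12.6% of all tested genes. Chromosomes 8, 3 and 17 followed with 36.4%, 34.6% and 27.5% higher and 5.43%, 3.87% and 4.81% lower. The reverse held on chromosome 7, with 3.95% higher and 24.3% lower, and on chromosomes 6 and X, with 21.7% and 20.4% lower. The shifts were small per gene, with a median log2 fold change of 0.30 on chromosome 14, 0.26 on 8, 0.24 on 3, 0.20 on 17 and -0.18 on 7. They were shared by all libraries of a group. The median deviation of chromosome 14 genes from the mean of the 6 libraries was -0.15, -0.15 and -0.15 in mock, 0.14, 0.16 and 0.15 in MYBup and 0.19, 0.20 and 0.17 in wt libraries (log2 CPM). Chromosome 7 gave 0.05, 0.08 and 0.13 in mock and -0.10, -0.08 and -0.07 in MYBup libraries. Mock and MYBup medians did not overlap on 17 of the 20 chromosomes, all but 15, 16 and 19. The same held for 176 of 270 windows of 40 neighbouring tested genes and for 40.6% of single tested genes. Such a lack of overlap does not mean a large shift, since the median log2 fold change was only 0.03 on chromosome 1 and -0.04 on chromosome 5.

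On the 4 chromosomes with the largest upward shift mock cells were the group apart. The median log2 fold change of MYBup against wt was -0.03 on chromosome 14, -0.03 on 8, 0.01 on 3 and 0.00 on 17. That of mock against wt was -0.34, -0.30, -0.23 and -0.18. These comparisons share libraries and are given side by side only. Of 270 windows of 40 neighbouring tested genes, 42 had a median above 0.2, and 35 of these lay on the 4 chromosomes, which hold 51 windows. When each library was centred per chromosome, 1133 genes were called higher and 1222 lower, so the number higher fell below the number lower. Counts in several lists moved by over 1.5 times with this centring. It left 2 glycosphingolipid, 2 ion channel, 2 fatty acid oxidation, 3 Notch, 3 actin, 3 cell death, 4 carbonyl and 7 matrix genes higher, and 7 actin and 3 matrix genes lower. It left 1 Polycomb gene higher and 1 lower, and 7 splicing genes lower.

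**Figure D4:**
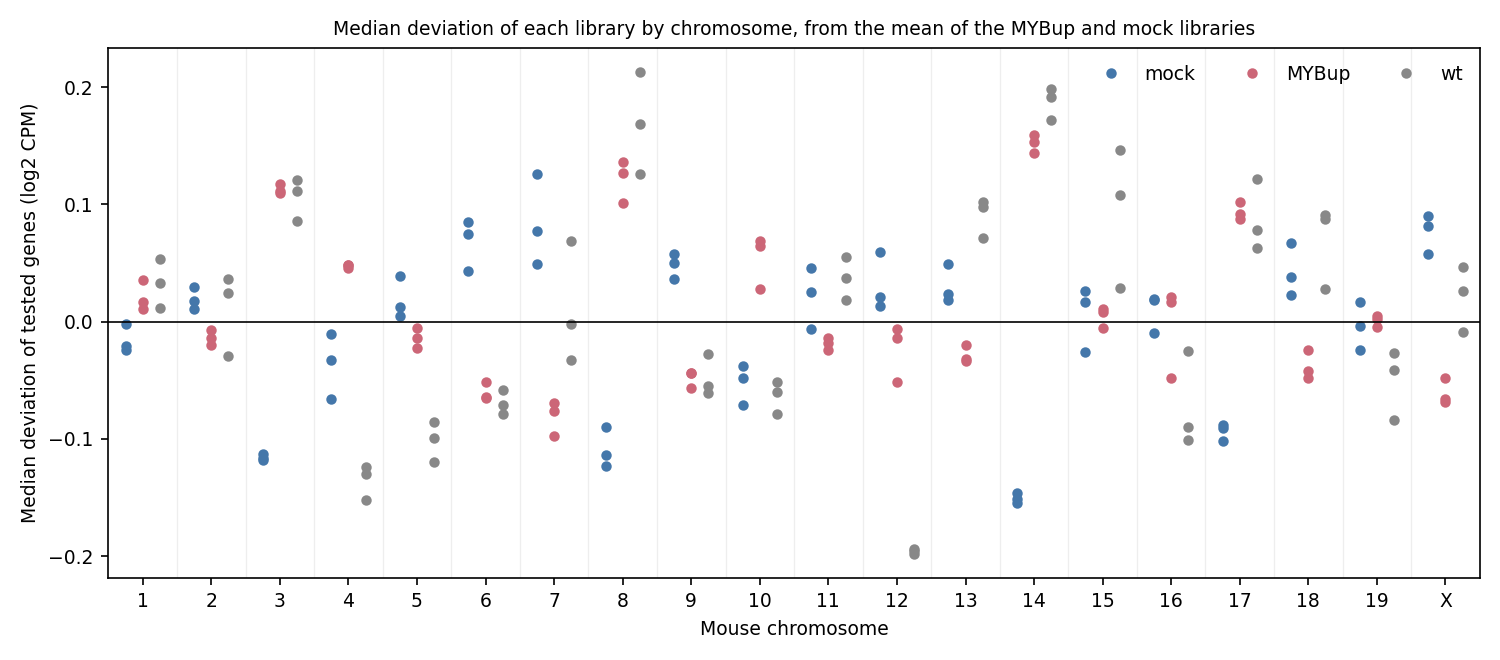
Median deviation of the tested genes of each chromosome from the mean of the 6 mock and MYBup libraries, in log2 CPM; each point is a library (blue mock, red MYBup, grey wt). On chromosomes 3, 8, 14 and 17 all mock libraries lie below 0 and all MYBup and wt libraries above it.

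A stretch of the X chromosome stood out within these shifts, and its ends were chosen after its values were seen. From Tab3 to Msn (chromosome X, 85574022 to 96168552, GRCm38), 16 of 18 tested genes were lower in MYBup and 0 higher, with a median log2 fold change of -1.03 and a lowest value of -4.77. Of the other 306 tested X genes 50 were lower and 14 higher, with a median of -0.11. The stretch holds genes of unlike function. Pola1, the gene of the DNA polymerase alpha catalytic subunit, stood at 236, 179 and 223 CPM in mock, 99, 106 and 109.7 CPM in MYBup and 145, 166 and 158 CPM in wt libraries (log2 fold change -1.02, SE 0.10, adjusted p = 2.13e-05). Eif2s3x, a translation initiation factor gene, stood at 188, 146 and 179.8 CPM in mock and 74.1, 85.5 and 90.7 CPM in MYBup libraries (log2 fold change -1.04, SE 0.11, adjusted p = 3.66e-05). Las1l, of ribosome synthesis, and Pdk3, a pyruvate dehydrogenase kinase gene, fell by 1.01 and 1.02 on the log2 scale. In each the lowest mock library lay above the highest MYBup library, as it or its reverse did for 40.6% of all tested genes.

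Maged1, an adaptor gene of the MAGE family, stood at 645, 673 and 577 CPM in mock, 266, 245 and 241 CPM in MYBup and 292, 282 and 302 CPM in wt libraries (log2 fold change -1.33, SE 0.08, adjusted p = 1.95e-07). Gk, the glycerol kinase gene, stood at 61.9, 54.5 and 54.6 CPM in mock, 18.1, 22 and 20.4 CPM in MYBup and 75.2, 75.6 and 82.1 CPM in wt libraries, so wt lay above mock where Maged1 had mock above wt. The median over the stretch was -0.65 for MYBup against wt and 0.39 for mock against wt. Zc4h2, a zinc finger gene, was the member with the largest change, at 1.94, 2 and 2.16 CPM in mock and 0, 0.148 and 0.0533 CPM in MYBup libraries, and was near 0 in wt (0.0138 mean CPM). Pet2 was not called (log2 fold change -1.49, adjusted p = 0.315). Just outside, Prkx and Yipf6 had log2 fold changes of -0.08 and -0.11. Msn, Maged1, Pola1, Eif2s3x and Las1l, 5 of the 8 genes of highest mean CPM among those changed at least 2-fold, lay in this stretch.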

How the data were processed

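Total RNA was extracted with the RNeasy Plus Mini kit and libraries were made with the Illumina TruSeq RNA kit, per the labels' protocols. The authors deposited 1 table of raw read counts per gene for 12 libraries. STAR, edgeR and GRCm38 are named in the submitters' processing notes, while the sources used here give no version, annotation or use of strand. In the file, 2708 counts of more than 4 digits keep 4 significant digits. Gene names and positions came from GENCODE M21 (GRCm38), matched for 22570 of 22880 features.

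Counts were tested with edgeR 4.0.16 in R 4.3.3 (filterByExpr, TMM, quasi-likelihood, Benjamini-Hochberg), with all 4 groups of 3 libraries sharing the estimate of spread and no replicate block. Single genes with 3 libraries against 3 cannot go below an exact two-sided permutation p of 0.1. On simulated counts for 11188 genes changes of 1.5-fold were called in 64.2% of the altered genes. Changes of 2-fold were called in 90.8% and of 4-fold in 100%, and 2.34% of calls on these counts were false. Whether these shares hold for the measured libraries, with their exon-length differences and chromosome shifts, was not tested. Alternatives used DESeq2 1.42.0, limma 3.58.1 and other filters, scalings and library subsets. Genes named were Myb, the 15 largest rises and falls with at least 5 CPM in the higher group and no overlap between libraries, the 8 of highest mean CPM that changed at least 2-fold, and up to 4 called members of each of 37 lists. Other members were named after their values were seen. The members and lists were chosen with earlier results of these data known. No pairing of libraries across groups by replicate number was seen, though a smaller shared effect was not tested. Results for some genes are not reported here.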

Additional observations from a re-analysis of the deposited data

How the results depend on the processing

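DESeq2, RLE size factors, limma voom, a filter of over 1 CPM in 3 libraries, no filter, and centring per chromosome gave 1133 to 1668 genes higher and 1222 to 1572 lower, against 1615 and 1423. In a fit on the 6 libraries alone 1280 were higher and 1193 lower, and with the replicate number as a block 788 were higher and 691 lower. In that blocked fit the clock list had 0 higher and 1 lower members, against 4 and 2. The actin list had 2 and 4, against 5 and 11, while the BMP and Id list kept 7 and 1. Deviations of same-numbered libraries correlated from -0.50 to 0.38, and those of unlike numbers from -0.54 to 0.64, so no pairing by number was seen. Whether same-numbered libraries share a smaller effect was not tested. Leaving out 1 library gave 1082 to 1698 higher, 964 to 1688 lower and 550 to 692 changed at least 2-fold. Of the 156 genes named by the rules given above, 34 lost their call under 1 or more of these settings and 0 changed direction. Among them 17 lost it under the replicate block and 16 after centring per chromosome. Members named after their values were seen, many with small changes, are not counted in these numbers. The depth of 12170188 to 21104811 counts left genes such as Wnt10b and Msi1 near single counts in mock libraries. Without both MYBup replicate 1 and mock replicate 2, an alternative chosen after seeing the data, 1476 were higher and 1434 lower.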
